A study of Homo sapiens with 4 samples.

Results

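The genes described here are 41 genes of the hypoxia response and of glycolysis, named as a list, among 19775 genes read on the arrays. Among probe sets annotated to a single gene, each gene was read from its brightest one by mean level. By this rule 39 of the 41 were read. CA9 and SLC16A3 had no probe set under their names in the platform annotation used and were not analysed here. RNA from 2 human colorectal cancer lines was hybridised to Affymetrix arrays, 1 for every one of 4 modified lines. HCT116, a colorectal carcinoma line, was measured as HCT116-CDX1 and HCT116-Vec. LS174T, a mucin-producing colon adenocarcinoma line, was measured as LS174T-siCDX1 and LS174T-siVec. The names were read as introduced CDX1 beside a vector control, and lowered CDX1 beside a vector control. The labels give neither the constructs, nor the number of clones or cultures behind an array, nor the oxygen or glucose in the medium. With 1 array per group, a difference within a pair cannot be checked against replicates, and precision is limited by how few arrays there are. In RNA from whole cultures, fewer cells of a kind and less RNA per cell cannot be told apart.

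Cells that lack oxygen accumulate hypoxia-inducible factor (HIF). Its alpha subunits, HIF1A and EPAS1 (HIF-2 alpha), are made continuously, hydroxylated by the oxygen-dependent prolyl hydroxylases of the EGLN family and destroyed. Without oxygen they persist and pair with ARNT at hypoxia response elements near genes for glucose uptake, glycolysis, blood vessel growth, pH control and mitophagy. This control acts on the protein, so the messenger levels of HIF1A and EPAS1 are not readings of HIF activity. Many cancer cells, colorectal ones included, also run glycolysis at a high rate in the presence of oxygen.

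Values are RMA expression on the log2 scale, where a difference of 1 is 2-fold. Genes that reached 6 on the brighter array of a comparison counted as measured, and "rose" and "fell" are used only of those with a difference of 2-fold or more. The 39 genes read were measured in every comparison, with readings of 6.15 to 14.33. A level can be compared between arrays for 1 probe set, not between genes. The readings of CA12, SLC2A3, ALDOA and GAPDH come from probe sets of the kind that can also pick up near-identical sequences.

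The labels were checked first through CDX1, the homeobox transcription factor altered in these lines, and through KRT20, its proposed target. CDX1 was at 8.24 on the array labelled HCT116-CDX1, against 8.21 in HCT116-Vec, and at 9.06 in LS174T-siCDX1, against 10.46 in LS174T-siVec. Its probe set therefore showed no raised CDX1 in HCT116. Whether that probe set covers the introduced construct is not given in the sources used here. Directions for HCT116 rest on the label alone. KRT20 was at 9.38 on the array labelled HCT116-CDX1, against 6.36 in HCT116-Vec, and at 5.45 in LS174T-siCDX1, against 8.15 in LS174T-siVec. Array medians were 7.04 to 7.06, and the 3' minus 5' difference of the GAPDH control probe sets was -0.07 to -0.03. All 8 colorectal epithelium markers were above the floor on all 4 arrays. Of the markers of other cell types, 7 of 9 fibroblast, 5 of 7 endothelial and 4 of 6 leukocyte genes were too. The summed levels for HCT116-CDX1, HCT116-Vec, LS174T-siCDX1 and LS174T-siVec were 62.5, 61.8, 61.8 and 61.7 for fibroblast, 50.5, 50.4, 49.3 and 49.4 for endothelial, and 38.5, 38.4, 45.6 and 44.7 for leukocyte markers. The leukocyte gap between the lines was mostly lysozyme, LYZ, at 11.25 in LS174T-siVec, against 4.97 in HCT116-Vec.

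Promoters of BNIP3, BHLHE40, ALDOC, EPAS1 and PGK1 are printed because their genes carry the differences below, or, for PGK1, because the gene is a textbook HIF target whose reading differed little between the arrays. The letters searched were ACGTG and GCGTG, the core of the hypoxia response element, on both strands, so that CACGT and CACGC also count. CACGTG, which is also the E-box bound by BHLHE40 itself, matches ACGTG on both strands and was taken as 1 stretch. Each sequence is the 250 bases before the transcription start, 5′ to 3′ on the gene's strand, from RefSeq on GRCh38.p14, with the matching letters in capitals.
BNIP3 (chr10:131981924-131982173, minus strand): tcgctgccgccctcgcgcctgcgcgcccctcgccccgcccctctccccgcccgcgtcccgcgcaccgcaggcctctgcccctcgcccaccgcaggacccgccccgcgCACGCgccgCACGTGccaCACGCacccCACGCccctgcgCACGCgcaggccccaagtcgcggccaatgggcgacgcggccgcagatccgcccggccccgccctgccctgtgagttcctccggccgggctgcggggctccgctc
BHLHE40 (chr3:4979187-4979436, plus strand): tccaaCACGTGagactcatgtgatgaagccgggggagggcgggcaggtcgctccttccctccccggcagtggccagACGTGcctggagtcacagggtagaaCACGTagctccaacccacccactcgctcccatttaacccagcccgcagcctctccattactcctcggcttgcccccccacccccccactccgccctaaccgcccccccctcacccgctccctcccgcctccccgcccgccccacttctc
ALDOC (chr17:28576896-28577145, minus strand): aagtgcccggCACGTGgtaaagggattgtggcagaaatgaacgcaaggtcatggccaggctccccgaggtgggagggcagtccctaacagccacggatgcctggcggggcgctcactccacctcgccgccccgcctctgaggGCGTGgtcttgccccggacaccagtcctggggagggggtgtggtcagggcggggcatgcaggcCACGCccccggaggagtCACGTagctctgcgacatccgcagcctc
EPAS1 (chr2:46297157-46297406, plus strand): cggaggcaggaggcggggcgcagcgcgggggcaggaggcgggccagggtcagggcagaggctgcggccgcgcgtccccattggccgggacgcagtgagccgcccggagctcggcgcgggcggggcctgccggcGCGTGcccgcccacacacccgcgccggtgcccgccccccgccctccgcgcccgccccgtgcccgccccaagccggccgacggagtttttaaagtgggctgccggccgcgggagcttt
PGK1 (chrX:78103998-78104247, plus strand): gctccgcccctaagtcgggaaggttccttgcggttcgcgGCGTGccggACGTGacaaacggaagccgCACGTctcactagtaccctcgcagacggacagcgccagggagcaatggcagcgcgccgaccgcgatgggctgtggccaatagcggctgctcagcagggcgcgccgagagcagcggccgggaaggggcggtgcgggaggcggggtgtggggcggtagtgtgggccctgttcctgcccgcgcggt
BNIP3 held 5 such stretches, with a CACGTG at 134 to 129 bases before the start. ALDOC held 4, BHLHE40 and PGK1 held 3 each, and EPAS1 held 1. BHLHE40 and ALDOC each had a CACGTG, at 245 to 240 and at 240 to 235 bases before the start. PGK1 thus held as many stretches as BHLHE40. Its reading lay between 13.10 and 13.25 on all 4 arrays, although its 6 probe sets gave -0.64 to -0.07 in the HCT116 pair and -0.88 to 0.20 between the vector arrays. The table of promoters used here held 67 entries for 37 of the 41 genes. VEGFA, BNIP3L, NDRG1 and SLC2A3 were not matched. Of those 67 entries, 62.7% held ACGTG or GCGTG, against 43.2% of all 35116 promoter windows of this length. For ACGTG alone the shares were 37.3% and 18.5%. For TTTATG or TTTATA, letters of the kind CDX proteins bind, the shares were 13.4% and 18.2%. Both strands were searched here too, so CATAAA also counted, and so did TATAAA, the letters of the TATA box. Median GC content was 68.4% in the members' windows and 58.0% in all windows, and its part in these shares was not tested. A match is a description of the letters, not a binding site.

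On the array labelled HCT116-CDX1, 3 of the 39 genes rose and 0 fell against HCT116-Vec. The 3 are 7.69% of those read, beside 0.916% of all 16914 measured genes that rose by this rule. They were BHLHE40, ALDOC and VEGFA. With 0 lower members, the share of all measured genes that fell was 0.97%. The median difference of the 39 genes was -0.01, equal to that of all measured genes. The direction rests on the label, as said above.

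BHLHE40 encodes DEC1, a basic helix-loop-helix repressor induced by hypoxia and also a part of the circadian clock. It stood at 11.86 on the array labelled HCT116-CDX1, against 9.90 in HCT116-Vec, and at 10.09 in LS174T-siCDX1, against 9.90 in LS174T-siVec. One array was thus high, and the other 3 lay within 0.2 of each other. BHLHE40 rose by 1.96 (3.89-fold) in HCT116, and its second probe set gave 1.87. ALDOC, the aldolase isoform best known from brain and also a HIF target, had the same shape. It stood at 11.32 on the array labelled HCT116-CDX1, against 9.96 in HCT116-Vec, and at 10.16 in LS174T-siCDX1, against 9.89 in LS174T-siVec. It rose by 1.36 (2.57-fold), and it was read by 1 probe set. VEGFA, the main vascular growth factor released by hypoxic cells, stood at 11.50 on the array labelled HCT116-CDX1, against 10.39 in HCT116-Vec. In LS174T it was at 11.48 in LS174T-siCDX1, against 11.28 in LS174T-siVec. Here HCT116-Vec was the low array. VEGFA rose by 1.11 (2.15-fold), and its 4 probe sets gave 0.93 to 1.16.

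**Figure D1:**
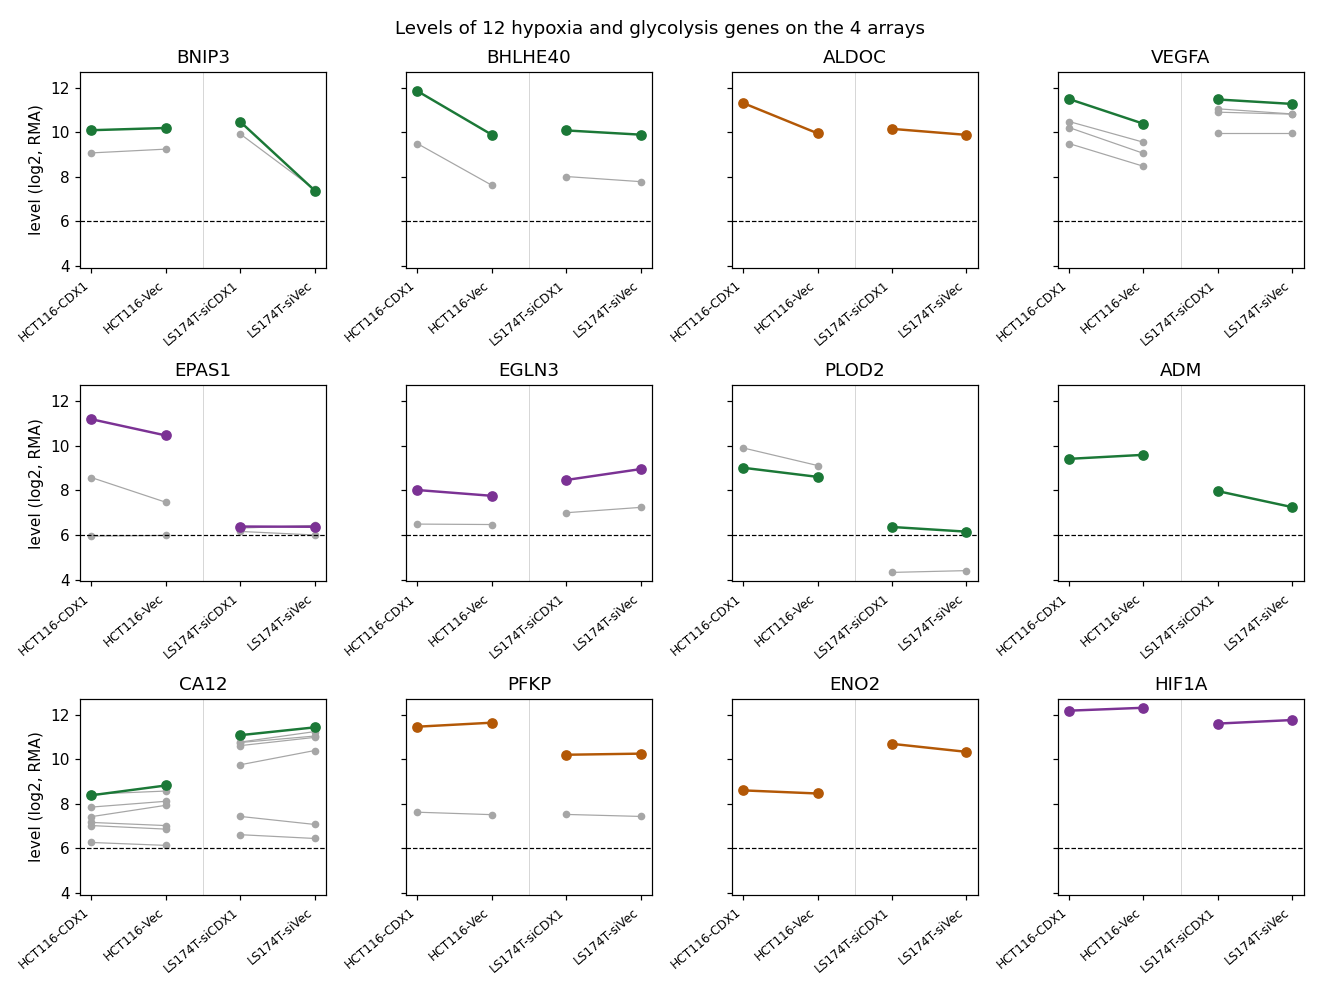
Levels (log2, vertical axis) of 12 genes on the 4 arrays, with the reading used in colour (green for HIF targets outside glycolysis, purple for HIF regulators, brown for glucose uptake and glycolytic enzymes), further probe sets of the gene in grey and the floor of 6 dashed. BNIP3 is low in LS174T-siVec alone, at 7.39, BHLHE40 and ALDOC are high on the array labelled HCT116-CDX1 alone, and EPAS1 and PLOD2 separate the lines.

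Of 14 HIF target genes outside glycolysis read in the HCT116 pair, 10 were above 0 and 2 rose, with a median difference of 0.38. Without probe sets shared between transcripts 8 of them could be read, and their median was -0.01. VEGFA, BHLHE40, NDRG1, PLOD2 and KDM3A, all above 0, had only shared probe sets and dropped out. P4HA1, also above 0, kept only a probe set below the floor. That median is thus over fewer genes and is not a second reading of the same ones. The 35 other HIF target genes measured had a median of 0.01, with 19 above 0 and 16 below. Below the 2-fold line lay ANKRD37 at 0.69, NDRG1 at 0.48, P4HA1 at 0.48 and BNIP3L at 0.41. ANKRD37 is a small ankyrin-repeat HIF target, NDRG1 a stress-induced differentiation gene, P4HA1 a collagen prolyl hydroxylase subunit and BNIP3L a mitophagy receptor. The carbonic anhydrase gene CA12 was at -0.44 and P4HA2, which encodes another collagen hydroxylase subunit, at -0.47. PLOD1, a lysyl hydroxylase gene, was at 0.35, the histone demethylase gene KDM3A at 0.10 and MXI1, an antagonist of MYC, at 0.08. PLOD2 was at 0.41, ADM at -0.18 and BNIP3 at -0.10. Of the regulators, EPAS1 was at 0.74, the hydroxylase genes EGLN3 and EGLN1 at 0.26 and 0.18, and HIF1A at -0.13.

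Among 17 genes of glucose uptake and glycolysis, 13 were below 0 in the same comparison and the median was -0.03, with quartiles of -0.13 and -0.01. The signs turned with the normalization: 8 were below 0 after quantile normalization, with a median of 0.01, and 6 after loess, with a median of 0.04. The glucose transporter genes moved apart without passing the threshold. SLC2A3 (GLUT3) was at 7.84 on the array labelled HCT116-CDX1, against 7.08 in HCT116-Vec, a difference of 0.76. SLC2A1 (GLUT1), the transporter most often named as a HIF target, was at 9.07, against 9.65 in HCT116-Vec, a difference of -0.58. A second, dimmer SLC2A1 probe set gave -0.06. The other SLC2A3 probe sets, below the floor, gave 0.79 and 1.25. PFKFB3, which makes the activator of phosphofructokinase, was at -0.50, and PDK1, the kinase that holds pyruvate out of the mitochondrion, at 0.52. PFKFB4, of the same family as PFKFB3, was at 0.09. LDHA, the lactate-forming dehydrogenase, was at -0.02.

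Other gene lists moved on the same 2 HCT116 arrays, where 0.916% of all measured genes rose and 0.97% fell. Of 17 measured genes of the ATF4 amino acid stress list, 6 rose, 0 fell and 17 were above 0, with a median of 0.84. In the LS174T pair 0 of 17 changed and the median was -0.05. VEGFA and DDIT4 are known to respond to ATF4 as well as to HIF. Of 20 genes of mitosis and replication, 3 fell and 18 were below 0, with a median of -0.48. The part of these shifts in the values above was not tested.

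In LS174T-siCDX1, 1 of the 39 genes rose and 0 fell against LS174T-siVec. One gene is 2.56% of those read, beside 0.598% of all 16896 measured genes that rose. The share of all measured genes that fell was 1.25%. The gene was BNIP3, whose protein sits in the outer mitochondrial membrane and marks mitochondria for mitophagy, and which is among the most inducible HIF targets. BNIP3 stood at 10.48 in LS174T-siCDX1, against 7.39 in LS174T-siVec. In HCT116 it was at 10.10 on the array labelled HCT116-CDX1, against 10.20 in HCT116-Vec. LS174T-siVec was therefore the array that stood apart, and on this probe set LS174T-siCDX1 was within 0.4 of both HCT116 arrays. BNIP3 rose by 3.08 (8.47-fold) in LS174T-siCDX1, and its second probe set, at 9.93 in LS174T-siCDX1 against 7.44 in LS174T-siVec, gave 2.49. In HCT116 the difference was -0.10. The second probe set was at 9.08 on the array labelled HCT116-CDX1 and at 9.25 in HCT116-Vec. LS174T-siVec was the lowest array there too, but LS174T-siCDX1 lay 0.85 above HCT116-CDX1.

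No relative of BNIP3 passed the threshold beside it. BNIP3L, its closest paralog, was at 10.69 in LS174T-siCDX1, against 10.67 in LS174T-siVec. Of 9 other mitophagy receptor genes measured, 0 changed in either pair, and in LS174T they ranged from -0.24 to 0.11. The other 13 HIF target genes of the list lay under 2-fold, 6 above 0 and 7 below, with a median of -0.01. Nearest were ADM, the vasodilator peptide adrenomedullin, at 7.97 in LS174T-siCDX1, against 7.25 in LS174T-siVec (0.72), and P4HA2 at -0.63. PDK1 was at 0.57 and EGLN3 at -0.49. NDRG1 was at -0.25, KDM3A at -0.12, PFKFB4 at -0.11, MXI1 at -0.07 and PLOD1 at -0.01.

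Of 17 genes of uptake and glycolysis, 0 changed, the range was -0.39 to 0.36 and the median -0.05. The ends of that range were PKM, the pyruvate kinase gene, and ENO2, the neuronal-type enolase gene. All 39 genes had a median of -0.05, against -0.01 for all measured genes, and 27 of the 39 lay within 0.25 of 0, beside 75.9% of all measured genes. The colorectal epithelium markers were lower in the same comparison: 8 of 8 were below 0, KRT19 at -1.69 and KRT8 at -1.49 fell, and the median was -0.72. Averaged over its probe sets KRT19 was at -0.75, under 2-fold. Of all measured genes, 1.25% fell. The part of these markers in the BNIP3 difference was not tested.

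**Figure D2:**
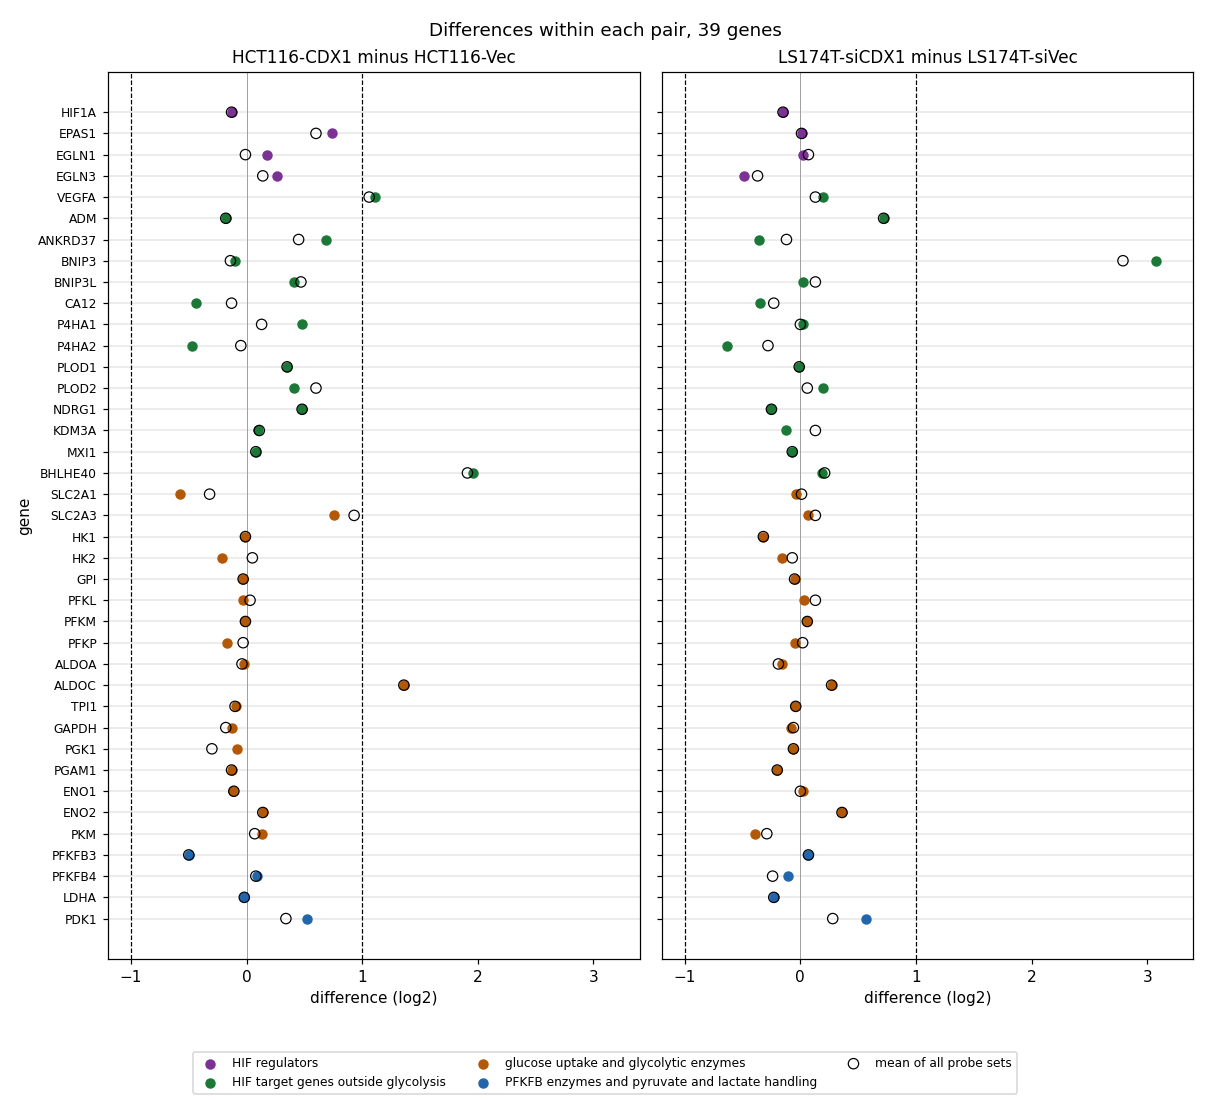
Differences on the log2 scale (horizontal axis) for the array labelled HCT116-CDX1 minus HCT116-Vec (left) and LS174T-siCDX1 minus LS174T-siVec (right), for 39 genes by role; filled points are the readings used, open circles the mean of all probe sets, and dashed lines 2-fold. BHLHE40, ALDOC and VEGFA lie beyond 2-fold on the left and BNIP3, at 3.08, on the right.

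A set of 9 central glycolysis and lactate genes, chosen here after their values were seen for their high levels, moved little within the pairs. They were GPI, ALDOA, TPI1, GAPDH, PGK1, PGAM1, ENO1, PKM and LDHA. Their differences ran from -0.13 to 0.13 in the HCT116 pair and from -0.39 to 0.02 in the LS174T pair. Their levels were 12.57 to 14.33, near the highest readings of the arrays, which were 14.45 to 14.62. How far signals this high compress a difference was not tested. GAPDH was read by 6 probe sets, which gave -0.24 to -0.13 in the HCT116 pair and -0.08 to -0.03 in the LS174T pair.

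Further HIF and glucose genes, from lists that do not overlap with the 41, also changed in small numbers. Of all measured genes, 0.916% rose and 0.97% fell in the HCT116 pair, and 0.598% and 1.25% in the LS174T pair. Of 13 measured HIF regulators, among them ARNT, VHL and HIF1AN, 0 changed in either pair. Of other HIF target genes, 2 of 35 rose on the array labelled HCT116-CDX1: DDIT4, an inhibitor of mTORC1 signalling, by 1.32, and the cyclin gene CCNG2 by 1.09. Averaged over its probe sets, CCNG2 was at 0.71. In LS174T-siCDX1, 2 of 33 rose and 1 fell. The chemokine receptor gene CXCR4 rose by 1.99 and IGFBP3, which encodes a binding protein of insulin-like growth factors, by 1.58. NOS3, the endothelial nitric oxide synthase gene, fell by 1.20, and averaged over its probe sets it was at -0.69. Of 19 other glycolytic and pentose phosphate genes, HKDC1, a hexokinase-like gene, fell by 2.63 in LS174T-siCDX1 (-1.64 averaged over its probe sets), and 0 changed in HCT116. Of 18 genes of pyruvate entry and gluconeogenesis, PCK2, the mitochondrial PEP carboxykinase gene and another gene known to respond to ATF4, rose by 1.71 on the array labelled HCT116-CDX1. MPC1, a subunit of the mitochondrial pyruvate carrier, fell by 1.59 there, and averaged over its probe sets it was at -0.78. In LS174T 18 genes of that list were measured too, with PCK1 in place of PDK4, and 0 changed.

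Between the lines more genes differed than within either pair. In LS174T-siVec, 3 of the 39 genes were at least 2-fold higher than in HCT116-Vec and 5 were lower, which is 7.69% and 12.8% of them. Of all 17043 measured genes, 6.03% were higher and 7.33% lower. This comparison shares an array with each pair. Between the modified arrays, LS174T-siCDX1 against HCT116-CDX1, 2 of the 39 were higher and 6 lower, beside 6.22% and 7.3% of 17146 genes. These 2 readings of the line difference share no array. Among the 39, 30 had the same sign in both (76.9%), and so had 73.5% of 16909 genes measured in both.

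How many of the 39 were counted depended on the fold asked for. At 1.5-fold, 6 were higher on the array labelled HCT116-CDX1, beside 3.37% of all measured genes, and at 3-fold BHLHE40 alone, beside 0.254%. In LS174T-siCDX1, at 1.5-fold, BNIP3 and ADM were higher and P4HA2 lower, beside 1.72% and 3.24% of all measured genes. Between the vector arrays 11 were higher in LS174T-siVec at 1.5-fold, beside 12.2%. Between the modified arrays 5 were higher in LS174T-siCDX1 at 1.5-fold, beside 13.3%, and 3 were lower at 3-fold, beside 3.73%.

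**Figure D3:**
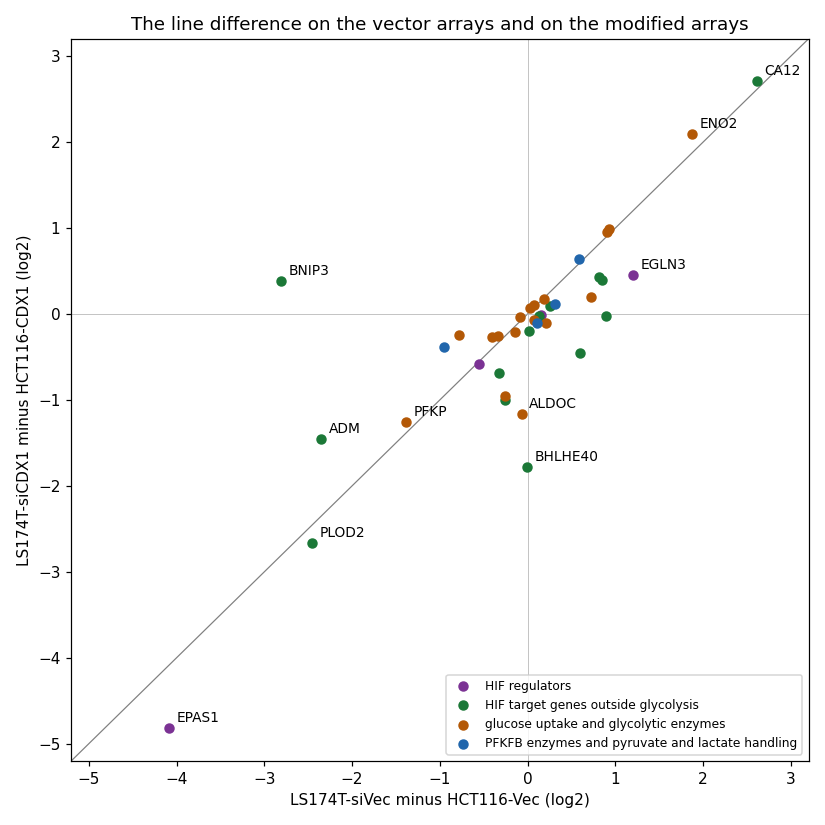
Each point is 1 of 39 genes, placed by its LS174T-siVec minus HCT116-Vec difference (horizontal, log2) and its LS174T-siCDX1 minus HCT116-CDX1 difference (vertical, log2); the line marks equal values, and genes at least 2-fold different in either are named. EPAS1, PLOD2, CA12, ENO2 and PFKP lie near the line, while BNIP3 (-2.81 and 0.38) and BHLHE40 (-0.01 and -1.78) lie off it.

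A limma fit over all 4 arrays, with cell line and CDX1 label as terms, gave the line difference an error. It leaves 1 residual degree of freedom per gene and takes the arrays of a line as replicates once the CDX1 label is allowed for. What is left as error is the gap between the CDX1 label differences of the 2 lines, so a response in 1 line only counts as error. That error is moderated with a prior of 3.45 degrees of freedom drawn from all genes. Nothing in the labels says that the arrays of a line came from separate cultures. The p-values therefore do not measure the spread between replicate cultures. Of 17280 genes tested, 4.9% were higher in LS174T and 6.21% lower at an adjusted p under 0.05 and at least 2-fold. Of the 39, 2 were higher, CA12 and ENO2, and 4 were lower, EPAS1, PLOD2, ADM and PFKP.

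EPAS1, the HIF-2 alpha gene, differed most. It stood at 6.38 in LS174T-siCDX1 and 6.37 in LS174T-siVec, against 11.20 on the array labelled HCT116-CDX1 and 10.47 in HCT116-Vec. LS174T was just above the floor. The line difference was -4.46 ± 0.23 (SE, limma adjusted p = 0.00175). Its 3 probe sets disagreed in size: the vector arrays differed by -4.09, -1.05 and 0.02, the last on a probe set near the floor throughout. HIF1A, by contrast, was at 11.61 in LS174T-siCDX1 and 11.77 in LS174T-siVec, against 12.19 on the array labelled HCT116-CDX1 and 12.32 in HCT116-Vec. Its line difference was -0.56 ± 0.16 and did not pass the test (SE, limma adjusted p = 0.0902). EGLN3, the hydroxylase gene that HIF itself induces, was 0.83 ± 0.16 higher in LS174T (SE, limma adjusted p = 0.0345), short of 2-fold, and EGLN1 was at 0.07 ± 0.15 (SE).

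Of the HIF targets, PLOD2 and ADM were lower in LS174T and CA12 was higher. PLOD2, a lysyl hydroxylase of collagen cross-linking, stood at 6.36 in LS174T-siCDX1 and 6.15 in LS174T-siVec, against 9.02 on the array labelled HCT116-CDX1 and 8.61 in HCT116-Vec. The difference was -2.56 ± 0.21 (SE, limma adjusted p = 0.00477), and a second probe set, below the floor in LS174T, gave -4.71 between the vector arrays. ADM stood at 7.97 in LS174T-siCDX1 and 7.25 in LS174T-siVec, against 9.42 on the array labelled HCT116-CDX1 and 9.60 in HCT116-Vec (-1.91 ± 0.19, limma adjusted p = 0.00824). CA12, a membrane carbonic anhydrase that regulates pH at the cell surface, stood at 11.09 in LS174T-siCDX1 and 11.44 in LS174T-siVec, against 8.39 on the array labelled HCT116-CDX1 and 8.83 in HCT116-Vec. Its difference was 2.66 ± 0.24 (SE, limma adjusted p = 0.006), and its 7 probe sets gave 0.05 to 3.53 between the vector arrays. For each of these 3 genes, as for EPAS1, the lines did not overlap. The share of all genes without overlap was not counted, so this adds nothing to the calls. The median over 14 HIF targets was 0.07 between the vector arrays. Of the 35 other HIF target genes measured, 1 was at least 2-fold higher and 7 were lower in LS174T-siVec than in HCT116-Vec, with a median of -0.10. Between the modified arrays 2 were higher and 8 lower, with a median of -0.14. Of all measured genes, 6.03% were higher and 7.33% lower between the vector arrays, and 6.22% and 7.3% between the modified arrays.

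At the enolase and phosphofructokinase steps, isoform genes lay on opposite sides of 0 between the lines. At the enolase step ENO2 stood at 10.70 in LS174T-siCDX1 and 10.34 in LS174T-siVec, against 8.61 on the array labelled HCT116-CDX1 and 8.47 in HCT116-Vec. ENO2 was higher in LS174T by 1.98 ± 0.19 (SE, limma adjusted p = 0.00708), and ENO1, the ubiquitous enolase gene, was at -0.34 ± 0.15 (SE, adjusted p = 0.216). At the phosphofructokinase step PFKP, the platelet-type isoform gene, stood at 10.21 in LS174T-siCDX1 and 10.26 in LS174T-siVec, against 11.47 on the array labelled HCT116-CDX1 and 11.65 in HCT116-Vec. PFKP was lower by 1.32 on the log2 scale, while PFKL, the liver-type gene, was higher by 0.96 ± 0.15 (SE, limma adjusted p = 0.0209), just short of 2-fold. PFKM, the muscle-type gene, was at -0.30 ± 0.15 (SE). The PFKP value was -1.32 ± 0.15 with a limma adjusted p of 0.0113, and a second, dimmer PFKP probe set gave -0.09 between the vector arrays. At the hexokinase step HK2, the inducible isoform gene, was at 0.92 ± 0.17 (SE, limma adjusted p = 0.0325), below 2-fold, and HK1 at 0.06 ± 0.16 (SE). Between the vector arrays the HK2 reading gave 0.9, and its other, dimmer probe sets gave -0.05 and 0.15. The aldolase genes ALDOA and ALDOC were at 0.00 ± 0.15 and -0.62 ± 0.41 (SE).

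**Figure D4:**
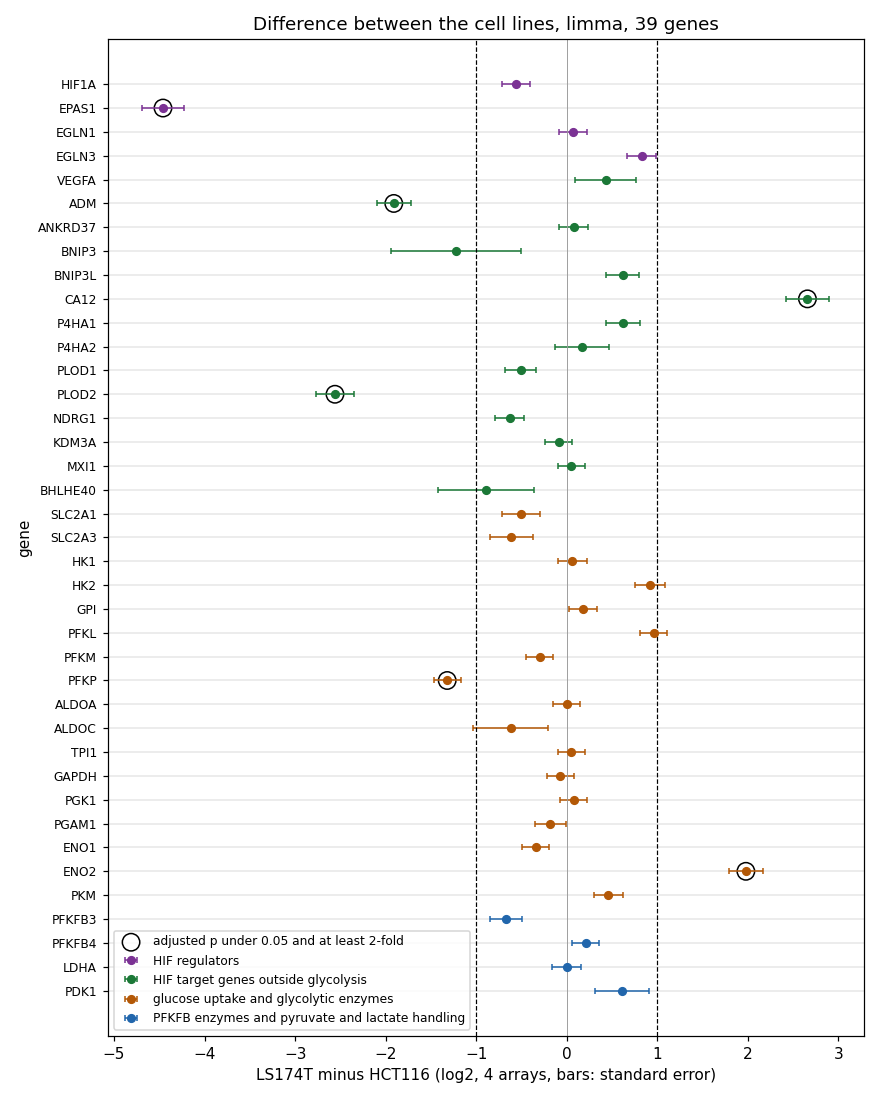
LS174T minus HCT116 difference (horizontal axis, log2) with its standard error from limma over 4 arrays, for 39 genes by role; ringed points had an adjusted p under 0.05 and at least 2-fold. EPAS1, PLOD2, ADM and PFKP are ringed on the left, CA12 and ENO2 on the right, and BNIP3 has the widest bar, 0.72.

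The genes that changed within a pair were not called for the line. In this fit a change in 1 pair enters the error of the gene, so the missing calls say little about the line. BNIP3 was at -1.22 ± 0.72 (SE, limma adjusted p = 0.349), with 1 of its 4 arrays low. BHLHE40 was at -0.89 ± 0.53 and ALDOC at -0.62 ± 0.41 (SE, limma adjusted p = 0.35 and 0.406), each high on 1 of 4 arrays. VEGFA was at 0.43 ± 0.34 (SE, limma adjusted p = 0.483). Between the vector arrays its reading differed by 0.89, just short of 2-fold, while its other probe sets gave 1.27, 1.49 and 1.75. Averaged over all its probe sets, VEGFA was at 1.35 between the vector arrays and at 0.43 between the modified arrays. On the shared enzymes GPI, TPI1, GAPDH, PGK1, PGAM1 and LDHA the line difference was 0.18, 0.05, -0.07, 0.08, -0.18 and 0.00, with standard errors of 0.15 to 0.17. PKM was further from 0, at 0.46 ± 0.16 (SE), and its probe sets gave 0.72 and 0.98 between the vector arrays.

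For the CDX1 label, arrays labelled with higher CDX1 (HCT116-CDX1 and LS174T-siVec) were set against those labelled with lower CDX1 (HCT116-Vec and LS174T-siCDX1) in the same fit. By limma 0 of 17280 genes, 0% of them and 0 of the 39 included, had an adjusted p under 0.05, while 518 genes and 1 of the 39 had an unadjusted p under 0.05. That member was ANKRD37, at 0.53 ± 0.16 (SE, limma adjusted p = 0.999). Its level was 7.91 on the array labelled HCT116-CDX1, against 7.22 in HCT116-Vec, and 7.46 in LS174T-siCDX1, against 7.82 in LS174T-siVec. BNIP3 was at -1.59 ± 0.72 and BHLHE40 at 0.88 ± 0.53 (SE) on this term, each from 1 line. KRT20, used above to check the labels, was at 2.86 ± 0.16 (SE) and was not called either. It followed the label in both lines, with 3.03 in the HCT116 pair and -2.70 in the LS174T pair. With so few arrays, the lack of calls on this term does not show a lack of difference.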

How the data were processed

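Gene expression was measured on 4 Affymetrix arrays, 1 per modified line, grouped by sample title. The authors used RMA, per the submitters' processing notes, with no version given in the sources used here. What they deposited, log2 expression for 54675 probe sets, was taken as it stood. Gene names came from GEO's platform annotation, in which 41097 probe sets had 1 gene, 1801 several and 11777 none listed, and symbols were updated through the gene identifier.

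The floor for a measured gene was 6 on the brighter of the 2 arrays compared, and the threshold for a change was a difference of 1. No p-value was computed for 2 arrays. limma 3.58.1 in R 4.3.3 fitted all 4 arrays, for the 17280 genes that reached 6 on any array, and p-values were adjusted over all of them (Benjamini-Hochberg). Tables were made in Python 3.11.15 with pandas 2.3.3. Alternatives were other floors, thresholds, normalizations, probe set rules and limma settings. The 41 genes and all lists were chosen with earlier results of these data known. All members were named; of the other lists described, at most 4 genes per list and pair that changed were.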

Additional observations from a re-analysis of the deposited data

Results flagged for a closer look

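For 3 genes that changed in the HCT116 pair, the difference between arrays labelled with higher and lower CDX1 had opposite signs in the 2 lines. With 1 array per group this was not tested. BHLHE40 was at 1.96 in HCT116 and -0.19 in LS174T, a gap of 2.15. ALDOC was at 1.36 in HCT116 and -0.27 in LS174T, a gap of 1.63. VEGFA was at 1.11 in HCT116 and -0.20 in LS174T, a gap of 1.31. The LS174T values of all 3 were well under 2-fold.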

How the results depend on the processing

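Of 104 recounts of members under other settings, 96 stayed within 1.5 times the reported count. Without probe sets shared between transcripts 24 members could be read, and 1 in place of 3 rose on the array labelled HCT116-CDX1. BHLHE40 and VEGFA have only shared probe sets and could not be read under that setting. At 1.5-fold the count that rose there was 6. At 3-fold it was 1. In LS174T-siCDX1, at 1.5-fold, 2 were higher and 1 lower, in place of 1 and 0. Between the vector arrays 11 were higher in LS174T-siVec at 1.5-fold, in place of 3. Between the modified arrays 5 were higher in LS174T-siCDX1 at 1.5-fold, in place of 2, and 3 lower at 3-fold, in place of 6. For the line, limma gave 2 higher members under each setting tried and 3 or 4 lower. The count was 3 with the mean of all probe sets, and also without shared probe sets, where PLOD2 could not be read. For the CDX1 label it gave 0 under each. Of 174 values of single changed genes, 164 kept their direction and call, 10 fell short of the threshold and 0 reversed. Many of these could not have come out otherwise. Under the other floors and at 1.5-fold the value is the same and the call is kept by design, and at 3-fold it cannot reverse. Genes that could not be read under a setting are not among the 174. As the mean of all probe sets, EGLN3 was at 0.99 and PFKP at -0.74 between the vector arrays, and EPAS1 was at -1.71. By that measure VEGFA, at 1.35, was among the higher members and EGLN3 was not. Loess moved the median of the 39 genes in the HCT116 pair to 0.10, with the median of all genes at 0.01. The limma fit with cell line as a term already sets the arrays of a line against each other, and with 1 array a group and no replicate numbers in the labels no further block was fitted.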
